A study of Homo sapiens with 4 samples.

Results

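The genes described here are the collagens, the matrix metalloproteinases (MMPs), the ADAMTS proteases and the tissue inhibitors of metalloproteinases (TIMPs) of PC-3 cells. The families were chosen with earlier results of these data known, and their genes by symbol alone. Every row of the count table named COL, MMP, TIMP or ADAMTS in the standard numbered form was taken. This gave 68 of the 17634 genes in the table, of which 34 were collagens, 16 MMPs, 15 ADAMTS proteases and 3 TIMPs. In the RefSeq annotation 89 protein-coding genes carry such names, and the remaining 21 were not analysed here. They include MMP2, MMP8, MMP12, TIMP3, COL5A3, COL11A1 and ADAMTS9.

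PC-3 is a prostate cancer line that was grown from a metastasis in bone. Total RNA was sequenced from cells with stable lentiviral overexpression of RRM2 (2 libraries, PC3-RRM2-1 and PC3-RRM2-2) and from cells that carried the empty vector (2 libraries, PC3-EV1 and PC3-EV2). Per the study's methods stable lines were kept under puromycin selection. Neither the promoter of the vector nor whether a line was a clone or a pool is given in the sources used here. RRM2 is the small subunit of ribonucleotide reductase, the enzyme that makes deoxyribonucleotides for DNA synthesis. The comparison of both groups asks which of these matrix genes differ when RRM2 is overexpressed.

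Collagens are secreted or membrane-bound proteins whose chains wind into a triple helix. Fibrillar collagens give connective tissue its tensile strength, type IV collagen forms the sheet of the basement membrane, and type VI collagen forms beaded filaments around cells. MMPs and ADAMTS proteases are zinc enzymes that cut collagens, proteoglycans and other matrix proteins outside the cell, and TIMPs block them. Carcinoma cells make many of these proteins themselves, and crossing of the basement membrane by tumor cells involves its proteolysis. The data are RNA levels, so neither protein amount nor enzyme activity was measured.

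Among the members, the type IV collagen genes lie head to head in pairs that share the stretch between their start sites. The sequence before the start of a gene is shown for some of the members. RefSeq promoters (GRCh38.p14) were at hand for 44 of the 68 genes. The windows below are printed 5′ to 3′ on the strand of the gene, run from up to 250 bases before the RefSeq start, and leave out bases that GENCODE release 29 places in an exon of any gene. COL4A5 is shown for the divergent pair in which COL4A6 fell. COL17A1, ADAMTS6 and ADAMTS14 are shown as 3 of the 6 genes with the largest rise. Capitals mark the letters of the motifs searched on both strands, which were GGGCGG (the GC box), CCAAT (the CCAAT box), TATAAA (the TATA box) and TGANTCA (the AP-1 site).
COL4A5, chrX:108439588-108439837, + strand: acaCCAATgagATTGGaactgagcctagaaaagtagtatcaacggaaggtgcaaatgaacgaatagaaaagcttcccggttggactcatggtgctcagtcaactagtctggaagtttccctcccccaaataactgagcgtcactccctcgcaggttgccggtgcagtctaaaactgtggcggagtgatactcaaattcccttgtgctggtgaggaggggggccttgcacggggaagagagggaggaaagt
COL17A1, chr10:104085958-104086130, - strand: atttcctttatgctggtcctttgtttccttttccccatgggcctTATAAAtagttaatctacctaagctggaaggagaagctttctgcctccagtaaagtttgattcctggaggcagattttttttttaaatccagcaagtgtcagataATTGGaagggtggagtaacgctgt
ADAMTS6, chr5:65481921-65482170, - strand: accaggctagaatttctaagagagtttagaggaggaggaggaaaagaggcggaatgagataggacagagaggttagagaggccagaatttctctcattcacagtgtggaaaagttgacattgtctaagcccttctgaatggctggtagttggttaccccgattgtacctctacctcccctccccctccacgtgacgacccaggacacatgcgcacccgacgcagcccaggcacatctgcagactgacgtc
ADAMTS14, chr10:70672256-70672505, + strand: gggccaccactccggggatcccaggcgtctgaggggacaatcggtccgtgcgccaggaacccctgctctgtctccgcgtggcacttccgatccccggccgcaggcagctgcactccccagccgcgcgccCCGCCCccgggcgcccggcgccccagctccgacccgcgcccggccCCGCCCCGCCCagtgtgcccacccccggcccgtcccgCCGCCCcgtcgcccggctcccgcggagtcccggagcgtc

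The COL4A5 window held 2 CCAAT boxes on opposite strands, separated by gag, and 32.0% of all 35116 RefSeq promoters held at least 1 in the same 250 bases. The COL17A1 window of 173 bases ended 78 bases before the RefSeq start, and bases nearer to the start were not searched. It held the letters of the TATA box 201 to 206 bases before the start. Of all promoters 6.93% held these letters somewhere in the same stretch. A CCAAT box lay on the other strand, and 22.6% of promoters held at least 1. The ADAMTS14 window had a GC content of 80.4% and held 4 GC boxes, of which a neighbouring pair overlapped by 1 base, and 42.6% of promoters held at least 1. The ADAMTS6 window held none of the 4 motifs. A COL4A3 window of 111 bases, searched but not shown, held 1 GC box, as did 26.6% of promoters. The AP-1 letters were in none of the 4 windows shown, against 4.50% to 6.57% of all promoters for windows of these lengths. These are matches of letters, and binding of any factor was not measured.

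The libraries held 37801301 and 30778321 estimated counts in PC3-EV and 30149181 and 30419769 in PC3-RRM2, and the 68 genes took 0.444% to 0.588% of them. Levels are given in the usual CPM unit, library-size scaled counts with TMM factors, with mean ± SD over both libraries of each group (n = 2). RRM2 itself stood at 21.8 and 20.8 CPM in PC3-EV and 96.6 and 98.8 CPM in PC3-RRM2, a rise of 4.59-fold (log2 fold change 2.20 ± 0.08 SE, edgeR adjusted p = 2.53e-06), in which vector and endogenous transcripts cannot be told apart. The epithelial and mesenchymal genes VIM, KRT8, KRT18 and CD44, which PC-3 cells express, were at 98.8 CPM or more in every library. Of 10 fibroblast markers, which matter here because fibroblasts make much collagen, 5 had rows. Their sum was 46.1 CPM in both PC3-EV libraries and 47.6 and 54.4 CPM in PC3-RRM2, with DCN and PDGFRB at 0.461 CPM or less. All 3 that were tested were called, FBLN1 and LUM higher and PDGFRA lower (100%, beside 18.2% of all genes tested). Of 8 endothelial markers 7 had rows, and their sum was 79.9 and 80.9 CPM in PC3-EV and 38.2 and 38.1 CPM in PC3-RRM2. All 4 that were tested, PECAM1, KDR, ROBO4 and ESAM, were called lower (100%, beside 8.19% of all genes called lower). CDH5, a defining endothelial gene, was at 0 counts in PC3-EV and at 0.198 and 0.297 CPM in PC3-RRM2, where it was below the filter, and VWF and TEK did not exceed 0.132 CPM. Leukocyte markers summed to 93.5 to 109 CPM, nearly all of it CD68, with 5 of 8 markers in the table. Of the 4 leukocyte markers tested CSF1R was the 1 called (25%, beside 18.2% of all genes). It had 3 and 0 counts in PC3-EV and 18 and 11 in PC3-RRM2. Of 8 muscle, cartilage and bone markers 6 had rows, with sums of 174 to 177 CPM in PC3-EV and 149 to 155 CPM in PC3-RRM2. Of these 4 were tested and 3 called (75%, beside 18.2% of all genes). SOX9 was lower (134 against 62.7 CPM as group means), and RUNX2 (41.2 against 88.1 CPM) and ACTG2 (0.0856 against 0.840 CPM) were higher. The part of these marker genes in the results was not tested. In such bulk RNA a change in the share of cells that express a gene and a change in RNA per cell cannot be told apart.

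The replicate libraries differed in a way that followed base composition. Among the 42 members with at least 1 CPM in every library, the log2 ratio of PC3-RRM2-2 to PC3-RRM2-1 had a correlation of -0.80 with the GC content of the longest transcript, and the ratio of PC3-EV2 to PC3-EV1 had a correlation of 0.58. Over all 13025 genes at this level the values were -0.72 and 0.49, where genes share their libraries and are not independent. In PC3-RRM2 the median log2 ratio of the replicates was -0.46 for the 18 members of at least 60% GC and -0.05 for the other 24. The PC3-RRM2 replicates differed by a log2 ratio of -0.74 for COL6A2 and COL18A1 and -0.71 for COL7A1, beside 0.05 for COL4A5 and -0.05 for COL5A2 and COL6A3. MMP10, with a GC content of 43.7%, had a ratio of 0.59 in PC3-RRM2 and -0.38 in PC3-EV. The part of GC content in this spread was not tested.

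**Figure D1:**
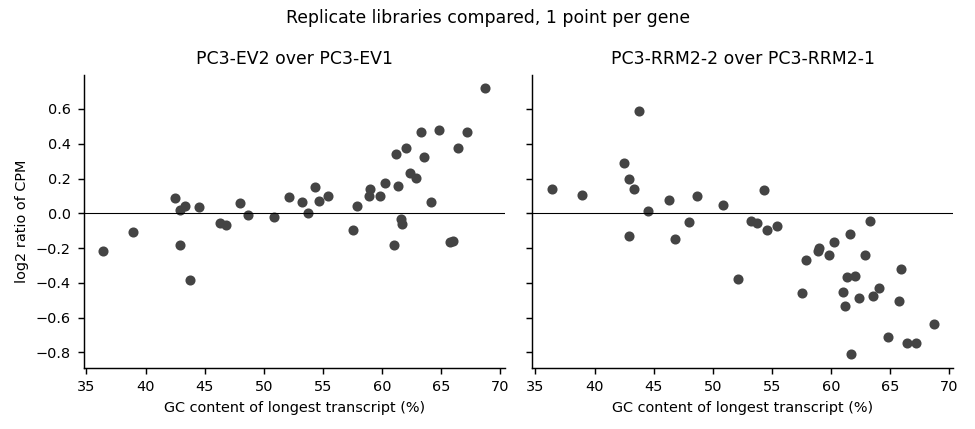
Log2 ratio of the CPM of replicate libraries (vertical axis) against the GC content of the longest transcript in percent (horizontal axis) for the 42 members with at least 1 CPM in every library, 1 point per gene. Genes of high GC content lie mostly above 0 in the left panel (PC3-EV) and below 0 in the right panel (PC3-RRM2), where the correlation was -0.80.

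Groups were compared with edgeR's quasi-likelihood test over the 15781 genes that passed a filter on low counts, with Benjamini-Hochberg adjustment over all of them. A call of higher or lower in PC3-RRM2 needed a fold change over 1.5 besides an adjusted p below 0.05. Of the 68 members, 58 passed the filter, and 18 of these were called (31.0%), against 18.2% of all genes tested. The 11 called higher were 19.0% of the members tested, beside 9.97% of all genes, and the 7 called lower were 12.1%, beside 8.19%. The median log2 fold change of the 58 genes was 0.08, beside 0.00 for all genes. The CPM ranges of both groups did not overlap for 36 of the 58 genes (62.1%), beside 69% of all genes tested. Separate cultures are not named in the labels, and the spread on which the p-values rest may therefore be technical.

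The calls were also counted by level. Of the 14 members with a mean of 50 CPM or more, 2 were called, both lower (14.3%, beside 9.92% of all genes in that range). Of the 15 members between 5 and 50 CPM, 3 were called higher and 3 lower (40%, beside 17.3%). Of the 29 members below 5 CPM, 8 were called higher and 2 lower (34.5%, beside 28.8%). Thus all but 3 of the 11 genes called higher had a mean below 5 CPM, as had 690 of the 1574 called higher among all genes. In that range 27.6% of the members were called higher, beside 16.7% of all genes.

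**Figure D2:**
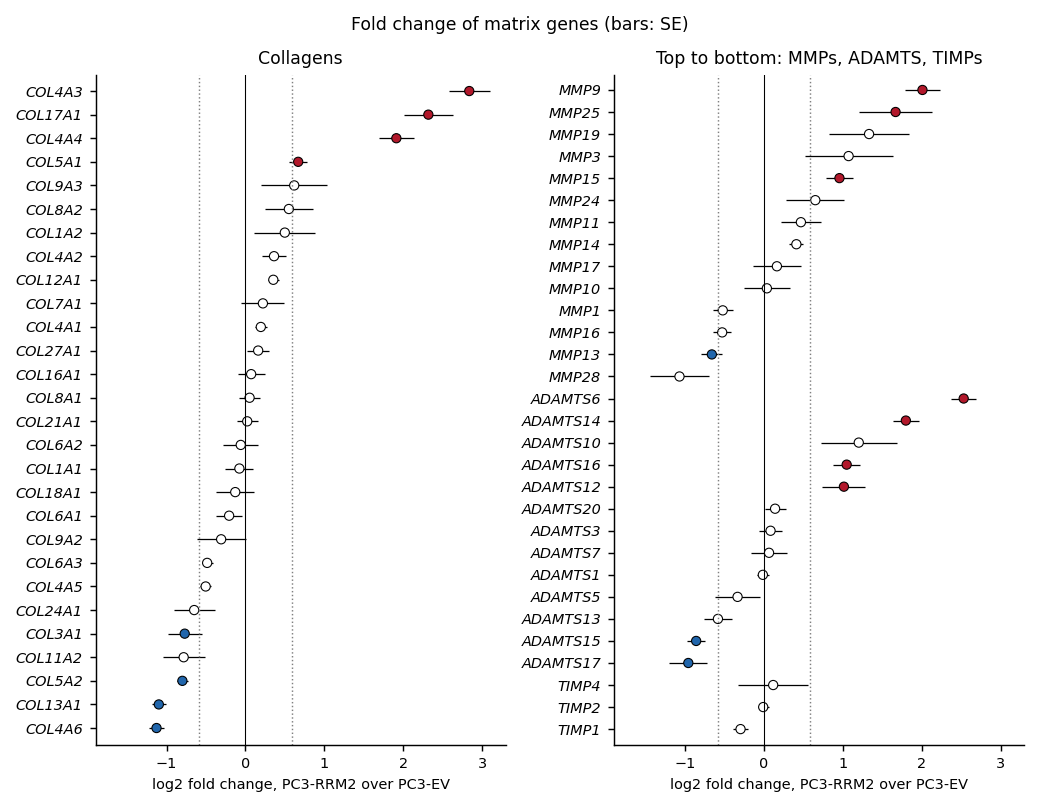
Log2 fold change of PC3-RRM2 over PC3-EV (horizontal axis) with its standard error (bars) for the 58 members tested, collagens on the left and proteases and inhibitors on the right. Filled red points are the 11 genes called higher, filled blue points the 7 called lower, open points were not called, and dotted lines mark a fold change of 1.5. COL4A3 lies farthest to the right and COL4A6 farthest to the left among those called.

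Of the 34 collagen genes 28 were tested, and 4 were higher, 4 lower and 20 not called in PC3-RRM2. The share called was 28.6%, beside 18.2% of all genes tested, and the median log2 fold change was 0.04. The genes that rose were the basement membrane chains COL4A3 and COL4A4, the hemidesmosome collagen COL17A1 and the fibrillar chain COL5A1. The genes that fell were the basement membrane chain COL4A6, the transmembrane collagen COL13A1 and the fibrillar chains COL5A2 and COL3A1. Summed collagen RNA was 4104 and 4650 CPM in PC3-EV and 3987 and 3228 CPM in PC3-RRM2. The type VI chains held 69.3% to 73.1% of this sum in every library. The remaining collagens summed to 1235 ± 55.8 CPM in PC3-EV and 1032 ± 58.9 CPM in PC3-RRM2.

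Type IV collagen is built from chains encoded by COL4A1 to COL4A6, which lie as divergent pairs on chromosomes 13, 2 and X. COL4A1 and COL4A2 encode the chains found in nearly all basement membranes. COL4A3 and COL4A4 supply, together with COL4A5, the network of the kidney glomerulus, and COL4A5 also assembles with COL4A6, a form found in the basement membranes of skin and smooth muscle. In these cells both genes of a pair had fold changes of the same sign, positive on chromosomes 13 and 2 and negative on chromosome X.

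COL4A3 (chr2:227164565-227314793, + strand, GRCh38) and COL4A4 (chr2:227002711-227164560, - strand) are separated by 4 bases in the coordinates of the table. COL4A3 had 15 and 17 counts in the PC3-EV libraries and 99 and 106 in the PC3-RRM2 libraries. This was 0.476 ± 0.113 against 3.38 ± 0.166 CPM, a rise of 7.14-fold (log2 fold change 2.84 ± 0.26 SE, edgeR adjusted p = 0.00018). The groups were far apart and the replicates close together, although the level remained low. COL4A4 had 31 and 32 counts in PC3-EV and 111 and 101 in PC3-RRM2. It rose 3.76-fold, from 0.933 ± 0.160 to 3.49 ± 0.230 CPM (log2 fold change 1.91 ± 0.23 SE, edgeR adjusted p = 0.000635). Again no PC3-EV library reached the level of a PC3-RRM2 library. The ratio of COL4A3 to COL4A4 counts was 0.484 and 0.531 in PC3-EV and 0.892 and 1.05 in PC3-RRM2, so that the chains had like counts in PC3-RRM2 and unlike counts in PC3-EV. An antisense transcript, LOC654841, overlaps COL4A3 at a mean of 1.52 CPM and was not called (log2 fold change -0.20), and without a stated strand setting reads of both cannot be told apart.

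COL4A5 (chrX:108439844-108697546, + strand) and COL4A6 (chrX:108155607-108439498, - strand) lie 345 bases apart. COL4A6 stood at 57.1 and 59.9 CPM in PC3-EV and at 27.7 and 25.9 CPM in PC3-RRM2. It fell 2.18-fold (log2 fold change -1.13 ± 0.09 SE, edgeR adjusted p = 9.55e-05), and replicates differed by far less than the groups. COL4A5, the most abundant type IV chain per library, stood at 286 and 282 CPM in PC3-EV and at 197 and 204 CPM in PC3-RRM2. Its log2 fold change of -0.50 ± 0.07 (edgeR adjusted p = 0.00116) passed the p threshold but not the fold of 1.5. The groups did not overlap for either gene. The ratio of COL4A5 to COL4A6 rose from 5.01 and 4.71 to 7.12 and 7.86, which no PC3-EV library reached.

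COL4A1 (chr13:110148958-110307158, - strand) and COL4A2 (chr13:110307267-110513210, + strand) lie 108 bases apart. COL4A1 had 84.4 and 90.5 CPM in PC3-EV and 102 and 97.6 CPM in PC3-RRM2, and COL4A2 had 79.9 and 104 CPM against 133 and 103 CPM. Their log2 fold changes of 0.19 ± 0.08 and 0.36 ± 0.15 did not pass the threshold (edgeR adjusted p = 0.0891 and 0.0982). For COL4A2 the ranges of both groups overlapped, with replicate 2 above replicate 1 in PC3-EV and below it in PC3-RRM2. Per kilobase of exon, COL4A5 was at 23.9 CPM in PC3-EV, COL4A6 at 6.30, COL4A1 at 5.93, COL4A2 at 4.76, COL4A4 at 0.0926 and COL4A3 at 0.0522. In PC3-RRM2 the order of the first chains changed, with COL4A5 at 16.9, COL4A1 at 6.79, COL4A2 at 6.11, COL4A6 at 2.89, COL4A3 at 0.370 and COL4A4 at 0.347 CPM per kilobase. The values of COL4A1 and COL4A2 lay within their spread in PC3-RRM2, and in PC3-EV every COL4A1 library lay above every COL4A2 library per kilobase. This separation rests on the lengths used, 14.7 and 19.3 kb as unions of all annotated exons, because in CPM both genes overlapped in PC3-EV. The place of COL4A6 above COL4A1 in PC3-EV rests on length as well, with 58.5 against 87.4 CPM as group means. Thus the abundant chains were COL4A5, COL4A1 and COL4A2 in PC3-RRM2, and COL4A3 and COL4A4 stayed far below them even after their rise.

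**Figure D3:**
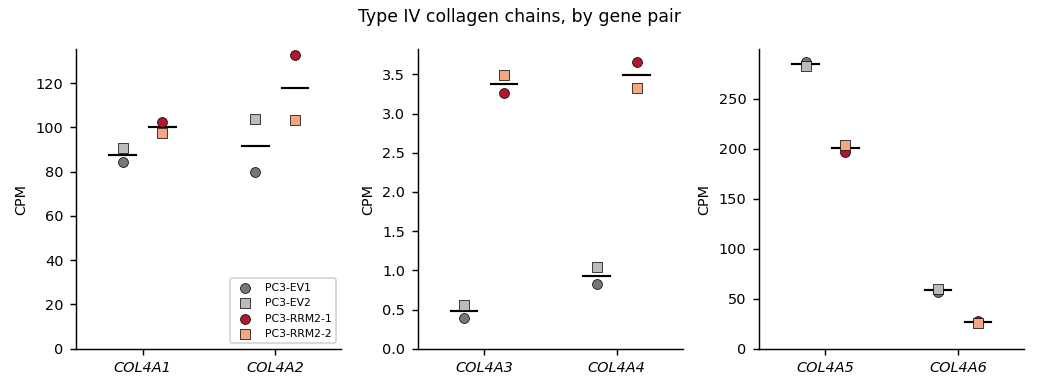
CPM of the type IV collagen chains in each library, 1 panel per divergent gene pair with its own linear axis from 0. Circles are replicate 1, squares replicate 2, grey PC3-EV, red and orange PC3-RRM2, and lines are group means. COL4A3 and COL4A4 rose from at most 1.05 CPM to at least 3.26 CPM, COL4A5 and COL4A6 lay lower in both PC3-RRM2 libraries, and COL4A2 overlapped between groups.

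Among the fibrillar collagens 8 were tested, with 1 higher and 2 lower (37.5% called, beside 18.2% of all genes). Type V collagen is a heterotrimer that regulates the diameter of collagen fibrils, and its chain genes COL5A1 (chr9:134641805-134844843, + strand) and COL5A2 (chr2:189031915-189179880, - strand) moved in opposite directions. COL5A1 stood at 18.0 and 20.2 CPM in PC3-EV and at 32.1 and 28.5 CPM in PC3-RRM2, a rise of 1.59-fold (log2 fold change 0.67 ± 0.11 SE, edgeR adjusted p = 0.00343). COL5A2 stood at 212 and 220 CPM in PC3-EV and at 126 and 122 CPM in PC3-RRM2, a fall of 1.74-fold (log2 fold change -0.80 ± 0.07 SE, edgeR adjusted p = 0.000149). Both genes separated the groups. COL5A2 remained the more abundant chain, at 29.0 CPM per kilobase of exon against 1.71 for COL5A1 in PC3-EV and 16.6 against 2.71 in PC3-RRM2. The ratio of COL5A2 to COL5A1 fell from 11.8 and 10.9 to 3.93 and 4.27. The call of COL5A1 was lost without PC3-EV1 (log2 fold change 0.56) and without PC3-RRM2-1 (0.58), where the fold fell below 1.5.

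COL3A1, the chain of type III collagen, which accompanies type I in elastic tissues, had 102 and 88 counts in PC3-EV and 56 and 43 in PC3-RRM2. It fell 1.71-fold, from 2.79 ± 0.128 to 1.63 ± 0.301 CPM (log2 fold change -0.77 ± 0.22 SE, edgeR adjusted p = 0.0286). This call was not kept without PC3-EV1 (log2 fold change -0.84), PC3-EV2 (-0.77) or PC3-RRM2-2 (-0.59), nor by DESeq2 (adjusted p = 0.144). The chains of type I collagen, the main protein of bone and tendon, were unequal. COL1A1 stood at 72.1 ± 11.9 CPM in PC3-EV and 68.2 ± 17.7 CPM in PC3-RRM2, while COL1A2 stood at 0.680 ± 0.102 and 0.955 ± 0.418 CPM. COL1A1 therefore had 64.5 to 107 times the counts of COL1A2 in each library, with no COL1A2 library above 1.25 CPM. Neither was called, and the ranges of the groups overlapped for both. COL27A1 (20.5 ± 1.57 and 22.9 ± 4.08 CPM), COL11A2 (1.86 ± 0.423 and 1.07 ± 0.0223 CPM) and COL24A1 (1.35 ± 0.0363 and 0.857 ± 0.0458 CPM) were not called.

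Both transmembrane collagens in the table were called (100%, beside 18.2% of all genes), in opposite directions. COL17A1 (chr10:104031288-104085881, - strand), the collagen that anchors epithelial cells at hemidesmosomes, had 11 and 12 counts in PC3-EV and 52 and 51 in PC3-RRM2. It rose 4.98-fold, from 0.342 ± 0.0718 to 1.70 ± 0.0218 CPM (log2 fold change 2.32 ± 0.31 SE, edgeR adjusted p = 0.00113). The groups did not overlap, at a level that stayed below 2 CPM. COL13A1 (chr10:69801888-69959149, + strand), a collagen of cell-matrix junctions that is known for its part at the neuromuscular junction, stood at 165 and 182 CPM in PC3-EV and at 86.5 and 75.5 CPM in PC3-RRM2. It fell 2.14-fold (log2 fold change -1.10 ± 0.09 SE, edgeR adjusted p = 0.000118). COL13A1 was among the most abundant collagens, at 29.5 CPM per kilobase in PC3-EV and 13.8 in PC3-RRM2.

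The type VI chains were the most abundant collagen RNAs and none was called. COL6A3 (chr2:237324012-237414208, - strand) stood at 1437 and 1502 CPM in PC3-EV and at 1067 and 1033 CPM in PC3-RRM2. Its groups did not overlap, and its value of -0.49 ± 0.07 on the log2 scale (edgeR adjusted p = 0.00172) passed the p threshold but not the fold. COL6A1 stood at 747 and 935 CPM in PC3-EV and at 848 and 609 CPM in PC3-RRM2, and COL6A2 at 723 and 938 CPM against 998 and 595 CPM. For COL6A1 and COL6A2, neighbours on chromosome 21, the replicates differed more than the group means, with PC3-EV2 above PC3-EV1 and PC3-RRM2-2 below PC3-RRM2-1. Their log2 fold changes were -0.21 ± 0.16 and -0.06 ± 0.22 (edgeR adjusted p = 0.352 and 0.854). Without PC3-RRM2-2 they were 0.01 and 0.26, and without PC3-RRM2-1 they were -0.46 and -0.48. Per kilobase of exon COL6A1 and COL6A2 stood at 157 and 154 CPM in PC3-EV and at 136 and 148 CPM in PC3-RRM2, beside 74.9 and 53.5 CPM for COL6A3.

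Of the other collagens, COL12A1, which decorates the surface of type I fibrils, stood at 160 and 154 CPM in PC3-EV and at 196 and 206 CPM in PC3-RRM2. The groups did not overlap, and its log2 fold change of 0.35 ± 0.07 (edgeR adjusted p = 0.00738) stayed below the fold of 1.5. COL7A1, the collagen of anchoring fibrils under the skin epithelium, stood at 3.23 ± 0.752 and 3.74 ± 1.28 CPM. COL18A1, the precursor of endostatin, stood at 18.9 ± 4.32 and 17.3 ± 6.16 CPM. It overlaps SLC19A1 on the other strand, which had a mean of 20.6 CPM and was called lower (log2 fold change -0.63). Without a stated strand setting reads of both in the overlap cannot be told apart. COL8A1, COL16A1 and COL21A1 stood between 4.18 and 9.12 CPM in every library, and COL8A2, COL9A2 and COL9A3 between 0.294 and 2.37 CPM. None of these collagens was called. COL2A1, COL10A1, COL14A1, COL15A1, COL26A1 and COL28A1 had at most 8 counts in any library and did not pass the filter.

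**Figure D4:**
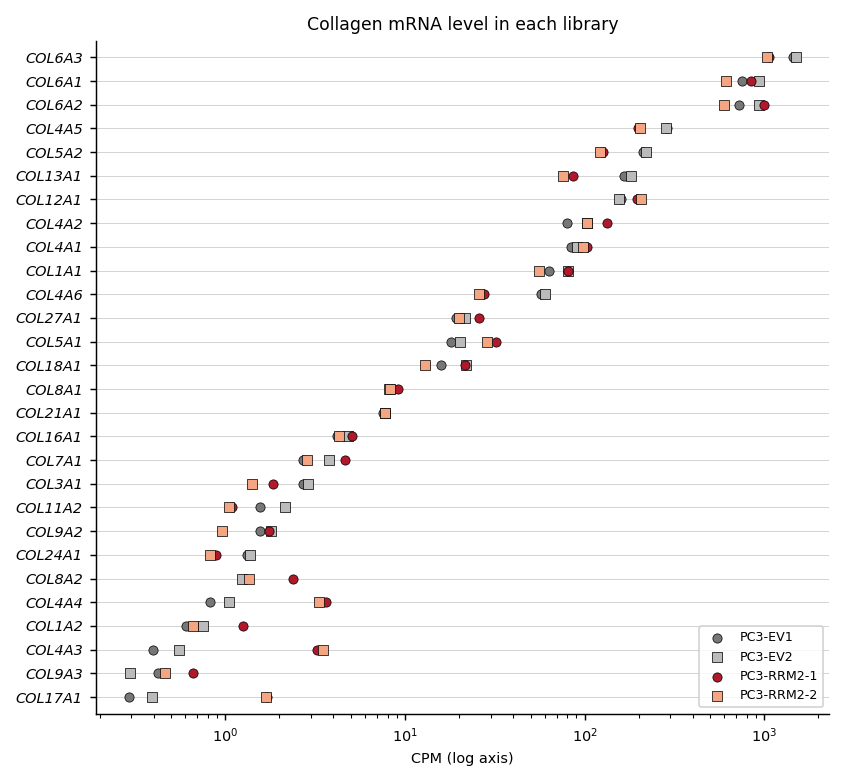
CPM of the 28 collagen genes tested (log axis) in each of the 4 libraries, ordered by the mean in PC3-EV. The grey symbols (PC3-EV) and the red and orange symbols (PC3-RRM2) are apart for COL4A3, COL4A4 and COL17A1 at the low end and for COL13A1, COL5A2 and COL4A6 at the high end, and the type VI chains lie at the top.

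Of the 16 MMP genes 14 were tested, and 3 were higher, 1 lower and 10 not called. The share called was 28.6%, beside 18.2% of all genes tested, and the median log2 fold change was 0.44. The genes that rose were the gelatinase MMP9 and the membrane-type enzymes MMP15 and MMP25. The gene that fell was the collagenase MMP13. Summed over the 16 genes, MMP RNA was 412 and 429 CPM in PC3-EV and 559 and 489 CPM in PC3-RRM2, and MMP14 alone made up most of it.

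MMP9 (chr20:46008908-46016562, + strand), gelatinase B, digests denatured collagen and the type IV collagen of basement membranes. It had 59 and 56 counts in PC3-EV and 241 and 172 in PC3-RRM2. The level rose 4.02-fold, from 1.70 ± 0.192 to 6.80 ± 1.60 CPM (log2 fold change 2.01 ± 0.22 SE, edgeR adjusted p = 0.000481). PC3-RRM2-1 was the higher of the PC3-RRM2 libraries, and both lay above both PC3-EV libraries. The overlapping antisense gene SLC12A5-AS1 stood at a mean of 0.541 CPM.

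Of the 6 membrane-type MMPs, which act at the cell surface, 2 were called, both higher (33.3%, beside 9.97% of all genes called higher). MMP15 (chr16:58025566-58046901, + strand) stood at 4.86 and 4.35 CPM in PC3-EV and at 9.94 and 7.98 CPM in PC3-RRM2. It rose 1.94-fold (log2 fold change 0.96 ± 0.17 SE, edgeR adjusted p = 0.00391) with no overlap. MMP25 (chr16:3046681-3060724, + strand), first known from leukocytes, had only 9 and 4 counts in PC3-EV and 17 and 20 in PC3-RRM2, as rounded for the test. Its rise from 0.184 ± 0.0758 to 0.610 ± 0.0704 CPM (log2 fold change 1.67 ± 0.46 SE, edgeR adjusted p = 0.0267) was not called without PC3-EV1 (log2 fold change 2.16), PC3-EV2 (1.30) or PC3-RRM2-2 (1.54), nor by DESeq2 (adjusted p = 0.186). It overlaps the antisense gene MMP25-AS1, at a mean of 1.78 CPM against 0.397 CPM for MMP25, and without a stated strand setting their reads cannot be told apart.

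MMP14 (chr14:22836533-22847600, + strand), the main membrane-type collagenase and the activator of pro-MMP2, was the most abundant protease of these families. It stood at 330 and 354 CPM in PC3-EV and at 489 and 420 CPM in PC3-RRM2, or 76.6 and 102 CPM per kilobase of exon as group means. Its groups did not overlap, and its log2 fold change of 0.41 ± 0.09 (edgeR adjusted p = 0.0105) did not reach the fold of 1.5. MMP16, another membrane-type enzyme, stood at 41.1 and 35.4 CPM in PC3-EV and at 25.3 and 27.8 CPM in PC3-RRM2. Its log2 fold change was -0.53 ± 0.11 (edgeR adjusted p = 0.00842), and it was called lower without PC3-EV2 (-0.68) and without PC3-RRM2-2 (-0.60). MMP17 stood at 2.06 and 3.40 CPM against 3.69 and 2.37 CPM, with overlapping ranges, and MMP24 at 0.732 ± 0.213 and 1.14 ± 0.395 CPM. MMP24 overlaps MMP24OS on the other strand, at a mean of 36.3 CPM against 0.934 CPM for MMP24. Reads of both in the overlap cannot be told apart either.

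The MMP genes of chromosome 11 form a cluster that holds the collagenases MMP1 and MMP13 and the stromelysins MMP3 and MMP10. MMP13 (chr11:102942992-102955735, - strand), collagenase 3, stood at 12.6 and 11.6 CPM in PC3-EV and at 7.38 and 7.95 CPM in PC3-RRM2. It fell 1.58-fold (log2 fold change -0.66 ± 0.13 SE, edgeR adjusted p = 0.00686). MMP1 (chr11:102789910-102798236, - strand), interstitial collagenase, stood at 13.4 and 13.8 CPM against 8.99 and 9.89 CPM. Both genes separated the groups, and MMP1, at -0.52 ± 0.12 on the log2 scale (edgeR adjusted p = 0.0151), fell short of the fold of 1.5 and was called only without PC3-RRM2-2 (-0.59). MMP10 stood at 1.36 ± 0.252 and 1.40 ± 0.397 CPM and MMP3 at 0.208 ± 0.155 and 0.461 ± 0.0462 CPM, and neither was called. Thus MMP13 was the 1 called gene of the cluster. The count of MMPs called lower was 1 with all libraries and 3 without PC3-EV2 or without PC3-RRM2-2.

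Of the remaining MMPs, the stromelysin MMP11 stood at 1.29 ± 0.117 and 1.80 ± 0.394 CPM. MMP19 stood at 0.230 ± 0.0482 and 0.593 ± 0.280 CPM. It overlaps TMEM198B on the other strand, at a mean of 14.6 CPM against 0.412 CPM for MMP19. Without a stated strand setting reads of both in the overlap cannot be told apart. MMP28, known as epilysin, stood at 1.37 and 0.817 CPM in PC3-EV and 0.494 and 0.560 CPM in PC3-RRM2 (edgeR adjusted p = 0.0569). The matrilysin MMP7 had 5 to 9 counts in each library and MMP21 had 5 and 5 counts against 1 and 1. For MMP21 the scaled ratio of PC3-EV to PC3-RRM2 was 4.44, with a 95% interval of 0.946 to 41.6 that covers counting error only. Both were below the filter and not tested.

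Of the 15 ADAMTS genes 13 were tested, and 4 were higher, 2 lower and 7 not called. The share called was 46.2%, beside 18.2% of all genes tested, and the median log2 fold change was 0.08. ADAMTS6, ADAMTS14, ADAMTS16 and ADAMTS12 rose, and ADAMTS15 and ADAMTS17 fell. Their sum was 151 and 152 CPM in PC3-EV and 151 and 153 CPM in PC3-RRM2, and ADAMTS1 and ADAMTS15 held most of it.

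ADAMTS6 (chr5:65148736-65481921, - strand), a relative of ADAMTS10 that acts on the microfibrils of the matrix, had 106 and 91 counts in PC3-EV and 456 and 557 in PC3-RRM2. It rose 5.78-fold, from 2.89 ± 0.122 to 16.7 ± 2.37 CPM (log2 fold change 2.53 ± 0.16 SE, edgeR adjusted p = 3.18e-05). Of the genes called higher it ended at the second place by CPM in PC3-RRM2, after COL5A1. ADAMTS10 itself stood at 0.210 ± 0.0728 and 0.478 ± 0.0695 CPM and was not called.

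ADAMTS2, ADAMTS3 and ADAMTS14 encode the procollagen N-proteinases, which trim the amino end of fibrillar procollagens before fibrils form. ADAMTS14 (chr10:70672506-70762440, + strand) had 76 and 60 counts in PC3-EV and 219 and 201 in PC3-RRM2. It rose 3.48-fold, from 1.99 ± 0.0336 to 6.92 ± 0.413 CPM (log2 fold change 1.80 ± 0.17 SE, edgeR adjusted p = 0.000188). ADAMTS3 stood at 6.40 and 6.47 CPM in PC3-EV and at 6.35 and 7.29 CPM in PC3-RRM2 and was not called. ADAMTS2 had 18 and 9 counts against 7 and 7 and did not pass the filter. Per kilobase of exon, ADAMTS14 was below ADAMTS3 in PC3-EV (0.377 and 0.897 CPM) and above it in PC3-RRM2 (1.31 and 0.951 CPM).

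ADAMTS16 (chr5:5140330-5320303, + strand) stood at 2.30 and 2.55 CPM in PC3-EV and at 4.77 and 5.24 CPM in PC3-RRM2. It rose 2.07-fold (log2 fold change 1.05 ± 0.17 SE, edgeR adjusted p = 0.00302). ADAMTS12, which cleaves the cartilage protein COMP, had 32 and 27 counts against 45 and 61. Its rise of 2.02-fold, from 0.864 ± 0.0260 to 1.75 ± 0.374 CPM (edgeR adjusted p = 0.0237), was not called without PC3-EV1 (log2 fold change 0.96), PC3-EV2 (0.99) or PC3-RRM2-2 (0.78), nor by DESeq2 (adjusted p = 0.147). ADAMTS7, which also cleaves COMP, stood at 2.70 ± 0.216 and 2.83 ± 0.696 CPM and was not called.

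Of the proteoglycan-cleaving ADAMTS enzymes 4 were tested and 1 was called (25%, beside 18.2% of all genes). ADAMTS15 (chr11:130448974-130476646, + strand) stood at 39.0 and 41.7 CPM in PC3-EV and at 24.1 and 20.4 CPM in PC3-RRM2. It fell 1.81-fold (log2 fold change -0.86 ± 0.11 SE, edgeR adjusted p = 0.000977) with no overlap. ADAMTS1, the most abundant of the family, stood at 70.8 and 70.4 CPM against 67.5 and 72.4 CPM, a change of -0.01 ± 0.08 on the log2 scale. ADAMTS5 stood at 1.24 ± 0.270 and 0.988 ± 0.0941 CPM and ADAMTS20 at 10.9 ± 0.970 and 12.1 ± 0.781 CPM, and neither was called. ADAMTS4 had at most 6 counts in a library.

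ADAMTS17, linked in people to an inherited disorder of the lens and of stature, had 95 and 72 counts in PC3-EV and 44 and 32 in PC3-RRM2. It fell 1.94-fold, from 2.43 ± 0.111 to 1.25 ± 0.278 CPM (log2 fold change -0.96 ± 0.24 SE, edgeR adjusted p = 0.0177), and was not called without PC3-EV1 (-0.93) or PC3-RRM2-2 (-0.75), nor by DESeq2 (adjusted p = 0.0914). ADAMTS13, the protease of von Willebrand factor, overlaps REXO4 on the other strand, which had a mean of 23.1 CPM against 6.34 CPM for ADAMTS13. REXO4 was not called (log2 fold change -0.34), and without a stated strand setting reads of both in the overlap cannot be told apart. ADAMTS13 stood at 7.43 and 7.78 CPM against 5.83 and 4.32 CPM. Its log2 fold change of -0.58 ± 0.18 (edgeR adjusted p = 0.0367) lay just under the fold of 1.5, and it was called lower without PC3-RRM2-1 (-0.81). The count of ADAMTS genes called lower was 1 without PC3-EV1 or without PC3-RRM2-2.

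**Figure D5:**
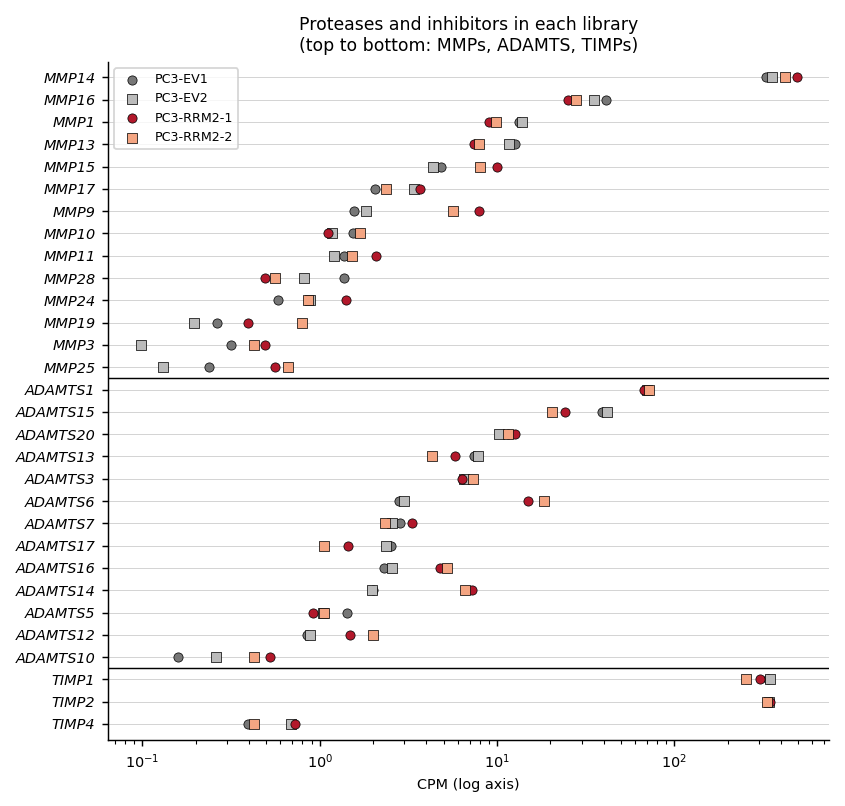
CPM (log axis) of the 14 MMPs, 13 ADAMTS proteases and 3 TIMPs tested in each of the 4 libraries, ordered within a family by the mean in PC3-EV. Grey symbols are PC3-EV, red and orange PC3-RRM2. ADAMTS6, ADAMTS14 and MMP9 are displaced to the right in both PC3-RRM2 libraries, while MMP14 and the inhibitors TIMP1 and TIMP2 lie above 250 CPM in every library.

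None of the 3 TIMP genes was called by edgeR (0%, beside 18.2% of all genes tested) or by DESeq2. With only 3 genes this cannot be set apart from the share of all genes. Of the 3, only TIMP1 had an unadjusted edgeR p below 0.05. TIMP1 (chrX:47582291-47586792, + strand), the inhibitor that binds pro-MMP9, stood at 337 and 347 CPM in PC3-EV and at 304 and 253 CPM in PC3-RRM2. The groups did not overlap, and the log2 fold change of -0.30 ± 0.10 (edgeR adjusted p = 0.0455) corresponded to 1.23-fold. TIMP2 (chr17:78852977-78925391, - strand), which both inhibits MMP14 and takes part in the activation of pro-MMP2 by it, stood at 340 and 340 CPM against 344 and 331 CPM. Its log2 fold change was -0.01 ± 0.07 (edgeR adjusted p = 0.928). TIMP4 stood at 0.397 and 0.687 CPM against 0.724 and 0.429 CPM. Per kilobase of exon TIMP1 was the most abundant RNA of all members, at 222 CPM in PC3-EV and 181 CPM in PC3-RRM2, beside 60.3 and 59.9 CPM for TIMP2.

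Protease RNA relative to inhibitor RNA was compared within each library. The ratio of MMP14 to TIMP2 CPM was 0.972 and 1.04 in PC3-EV and 1.42 and 1.27 in PC3-RRM2. The ratio of MMP9 to TIMP1 CPM was 0.00463 and 0.00528 in PC3-EV and 0.0261 and 0.0225 in PC3-RRM2. Both ratios were higher in each PC3-RRM2 library than in each PC3-EV library, and MMP9 RNA remained far below TIMP1 RNA in all of them. The smallest two-sided p that an exact permutation test can reach with 2 libraries against 2 is 0.333, and the ratios were not tested.

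Genes that make, cross-link, bind or cut the same matrix were compared in 7 further lists, with 83 genes tested in all. Of these 83 genes 10 were higher and 14 lower in PC3-RRM2. Of all 15781 genes tested 1574 were higher (9.97%) and 1292 lower (8.19%). Of 19 genes of collagen maturation in the endoplasmic reticulum, 2 were higher and 1 lower (15.8%, beside 18.2% of all genes). The prolyl hydroxylases P4HA3 (7.24 ± 0.199 to 21.3 ± 0.462 CPM, log2 fold change 1.56) and P3H2 (6.38 ± 0.0866 to 15.9 ± 1.16 CPM, 1.32) rose. The collagen galactosyltransferase COLGALT2 fell (5.01 ± 0.614 to 3.06 ± 0.00277 CPM, -0.71), a call lost without PC3-EV1 (-0.60) and by DESeq2. Of 11 genes of procollagen processing and cross-linking 4 were called (36.4%, beside 18.2%). The transglutaminase TGM2 (59.9 ± 1.77 to 279 ± 27.4 CPM, 2.22) and the lysyl oxidase LOXL2 (86.9 ± 5.85 to 151 ± 25.1 CPM, 0.79) rose. In the same list the lysyl oxidase LOXL4 (38.8 ± 1.98 to 20.0 ± 0.251 CPM, -0.95) and the procollagen C-proteinase TLL1 (10.1 ± 0.258 to 6.33 ± 0.891 CPM, -0.68, not called without PC3-RRM2-1, -0.54) fell.

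Of 11 tested genes of the plasmin system and other protease regulators, 4 were higher and 1 lower (45.5%, beside 18.2% of all genes). The urokinase gene PLAU rose from 2357 ± 40.0 to 4702 ± 78.7 CPM (log2 fold change 1.00). The protease inhibitor TFPI2 rose from 138 ± 1.51 to 359 ± 6.92 CPM (1.38). ST14, the epithelial membrane protease matriptase, had 30 and 23 counts in PC3-EV and 1596 and 1129 in PC3-RRM2 (log2 fold change 5.85 ± 0.23 SE, edgeR adjusted p = 2.83e-06). Of 6 tested matrix proteoglycan genes 5 were called (83.3%, beside 18.2%). VCAN (8.23 ± 0.384 to 52.1 ± 4.64 CPM, 2.66) and LUM (1.47 ± 0.276 to 3.48 ± 0.213 CPM, 1.23) rose. HSPG2, the perlecan of basement membranes (181 ± 25.4 to 64.2 ± 20.6 CPM, -1.49), BGN (1.59 ± 0.197 to 0.544 ± 0.163 CPM, -1.54) and PRELP fell, with PRELP at 4 counts in each PC3-RRM2 library.

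Of 8 tested collagen receptor genes 2 were called, both lower (25%, beside 8.19% of all genes called lower). These were ITGA1, the integrin chain that binds type IV collagen (51.7 ± 1.53 to 28.0 ± 2.10 CPM, log2 fold change -0.88), and OSCAR (35.9 ± 2.27 to 23.4 ± 2.17 CPM, -0.62, not called without PC3-RRM2-2, -0.52). Of 16 tested ADAM and ADAMTS-like genes 1 was called (6.25%, beside 18.2% of all genes). This was ADAMTSL3, which fell from 38.5 ± 0.784 to 23.2 ± 1.40 CPM (-0.73). In a last list, mostly of other proteins with a collagen-like or associated domain, 12 genes were tested and 4 were called, all lower (33.3%, beside 8.19%). This list also held the metalloproteinase genes MMP23A and MMP23B, whose symbols fall outside the rule. Their log2 fold changes were 0.89 and 0.95, and neither was called. The scavenger receptor SCARA5 fell from 36.5 ± 1.24 to 8.99 ± 0.847 CPM (-2.02), and GLDN (-2.10), EMILIN2 (-0.89) and COLQ (-0.62) fell as well. COLQ was not called without PC3-EV1 (-0.73), PC3-EV2 (-0.58) or PC3-RRM2-2 (-0.52), nor by DESeq2.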

How the data were processed

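RNA-seq values were deposited as 1 table of estimated counts per gene, which the authors made in Partek Flow and did not normalize. No aligner, annotation, version or strand setting is given in the sources used here. The gene coordinates of the table are those of GRCh38. The members and the gene lists were chosen with earlier results of these data known, so their counts are a description.

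Estimated counts were rounded to whole numbers, filtered with filterByExpr by group (minimum count 10), scaled by TMM and tested with edgeR 4.0.16 (quasi-likelihood F-test) in R 4.3.3, with the 2 groups as the only term. Benjamini-Hochberg adjustment ran over the 15781 genes tested, and the thresholds (adjusted p below 0.05, fold change over 1.5) are those of the study. Standard errors were taken from F, as the log2 fold change over the root of F. The test was first run on simulated counts, drawn with the same dispersion for all genes and without the replicate gap that followed GC content. This run therefore does not cover the spread of the libraries used here. Named genes were every called member, every TIMP, the 6 most abundant uncalled members of each family, chains or relatives of a called member, and up to 4 called genes of each further list with the smallest p, of which some are not reported here. The other members are named with levels after their values were seen. Length (union of exons) and GC content came from GENCODE release 29, and promoters from RefSeq. A union of exons can be longer than any single transcript, so every order of genes per kilobase depends on it. The replicates were no copies of each other (chi-square per degree of freedom 6.15 for PC3-EV and 15.9 for PC3-RRM2). The alternatives were RLE and upper-quartile factors, no filter and a stricter filter, DESeq2 1.42.0, limma-voom 3.58.1, glmTreat, a replicate block and each library left out. Fractional counts occurred in 12 members, and 0 members shared place and counts with another gene.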

Additional observations from a re-analysis of the deposited data

How the results depend on the processing

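Of the 18 called members, COL4A3, COL4A4, COL17A1, COL4A6, COL13A1, COL5A2, MMP9, ADAMTS6, ADAMTS14 and ADAMTS16 kept their call in all 13 alternatives. MMP13, MMP15 and ADAMTS15 lost it only under glmTreat, which tests against the fold of 1.5 itself. COL3A1, MMP25, ADAMTS12 and ADAMTS17 lost it under glmTreat, under DESeq2 and without certain libraries, and COL5A1 under glmTreat and without certain libraries. ADAMTS13 was called lower with RLE or upper-quartile factors, limma-voom and either block, at log2 fold changes from -0.59 to -0.60. No called gene changed direction in any alternative, and no scaling moved the median of all genes by more than 0.05.

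Under glmTreat 781 genes were called higher and 479 lower among all genes. It called 1 MMP higher and 0 lower, 0 ADAMTS genes lower and 5 genes of the other matrix lists lower. DESeq2 called 1 ADAMTS gene lower. Leaving out 1 library gave 1 to 3 MMPs and 1 to 3 ADAMTS genes called lower.

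Replicate numbers are shared by both groups, but nothing ties equal numbers to a common culture or batch, and deviations of equal numbers had a correlation of -0.48 across genes. With the replicate block 2 MMPs were called lower, and with the crossed replicate block, chosen after seeing the data, also 2.

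The alternatives were run for 22 of the 40 members that were not called, and 9 of these changed the sign of their log2 fold change. Over the 4 left-out libraries it ranged from -0.21 to 0.29 for ADAMTS7, from -0.018 to 0.18 for ADAMTS3, from -0.065 to 0.037 for ADAMTS1, from -0.46 to 0.012 for COL6A1 and from -0.48 to 0.26 for COL6A2. It ranged from -0.18 to 0.51 for MMP17, from -0.29 to 0.30 for MMP10, from -0.055 to 0.018 for TIMP2 and from -0.30 to 0.49 for TIMP4. With no filter TIMP2 had 0.00036, and with the stricter filter 0.0048. The cause was not tested. Of the 10 members below the filter, none had more than 18 counts in a library, and their differences between groups were not tested at this depth.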
